A study of Mus musculus with 10 samples.

Results

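The genes described here encode the extracellular part of the Wnt pathway: the Wnt ligands, the Frizzled receptors and their LRP co-receptors, the R-spondins and their LGR receptors, and the secreted inhibitors of the SFRP, Dickkopf and WIF1 families. They were chosen by gene symbol (Wnt, Fzd, Sfrp, Dkk and Rspo followed by a number, with Dkkl1, Lgr4 to Lgr6, Lrp5, Lrp6 and Wif1), and where a gene had several probe sets, the one with the highest mean over all arrays was taken. This gave 49 genes, from 50 probe sets, out of 19938 genes that had a probe set with a single symbol. One of the 49, Fzd10os, is a transcript from the strand opposite Fzd10 and not a receptor.

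RNA came from the epidermis of 3-day-old littermate mice, separated from the dermis with dispase, and each of the 10 arrays held RNA of a different mouse. All 10 mice carried the K14Cre transgene (Tg(KRT14-cre)1Amc/J), in which the promoter of keratin 14 drives Cre in basal keratinocytes and in the appendages that derive from them. The 5 ILK-deficient mice were homozygous for the floxed Ilk allele Ilktm1Star (K14Cre; Ilk f/f), and the 5 ILK-expressing mice were heterozygous for it (K14Cre; Ilk f/+), so that the controls also carried Cre and 1 floxed allele. ILK, the integrin-linked kinase, is a scaffold protein that ties integrins to the actin cytoskeleton. Values are log2 intensities of a probe set, which pools probes along the exons of a transcript, and a positive log2 fold change stands for a higher value in the ILK-deficient group.

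Wnt proteins are secreted lipid-modified ligands that bind a Frizzled receptor together with LRP5 or LRP6, which stabilises beta-catenin and lets it act with TCF/LEF factors on its target genes, while other Wnt signals act without beta-catenin on cell shape and polarity. R-spondins bind the LGR receptors and strengthen the signal by removing the ubiquitin ligases RNF43 and ZNRF3, which otherwise take Frizzled off the cell surface. SFRP and WIF1 proteins bind the ligands outside the cell, and the classical Dickkopf proteins block the LRP co-receptors. In skin this pathway is needed for hair follicles to form and grow, and LGR5 and LGR6 mark stem cell populations of the follicle.

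Of the 49 genes, 46 reached 50 on the linear scale in 5 or more of the 10 arrays and were tested. Wnt1 and Wnt8b reached this level on 0 arrays and Rspo4 on 1 array, and no fold change is given for them. At an adjusted p under 0.05 in limma, 9 of the 46 genes (19.6%) differed between the genotypes, beside 3.78% of all 32046 probe sets tested. Sfrp2, Lgr5, Lgr6, Dkk3, Wif1, Lgr4 and Fzd3 were higher in ILK-deficient epidermis, which makes 7 genes against a background of 2.81% for this direction, and Wnt3a and Wnt10a were lower, against 0.97%. The genotypes did not overlap on any array for 10 of the 46 genes (21.7%, beside 6.33% of all probe sets), namely these 9 and Wnt9a. The median log2 fold change of the 46 genes was 0.05, near the median of 0.003 over all probe sets, and 27 of them lay above 0 and 19 below. By the cut-off of the study's methods, an unadjusted p under 0.05 and at least 1.5-fold, 6 genes passed (Sfrp2, Lgr5, Lgr6, Dkk3, Wif1 and Lgr4), all higher, beside 2.43% of all probe sets.

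**Figure D1:**
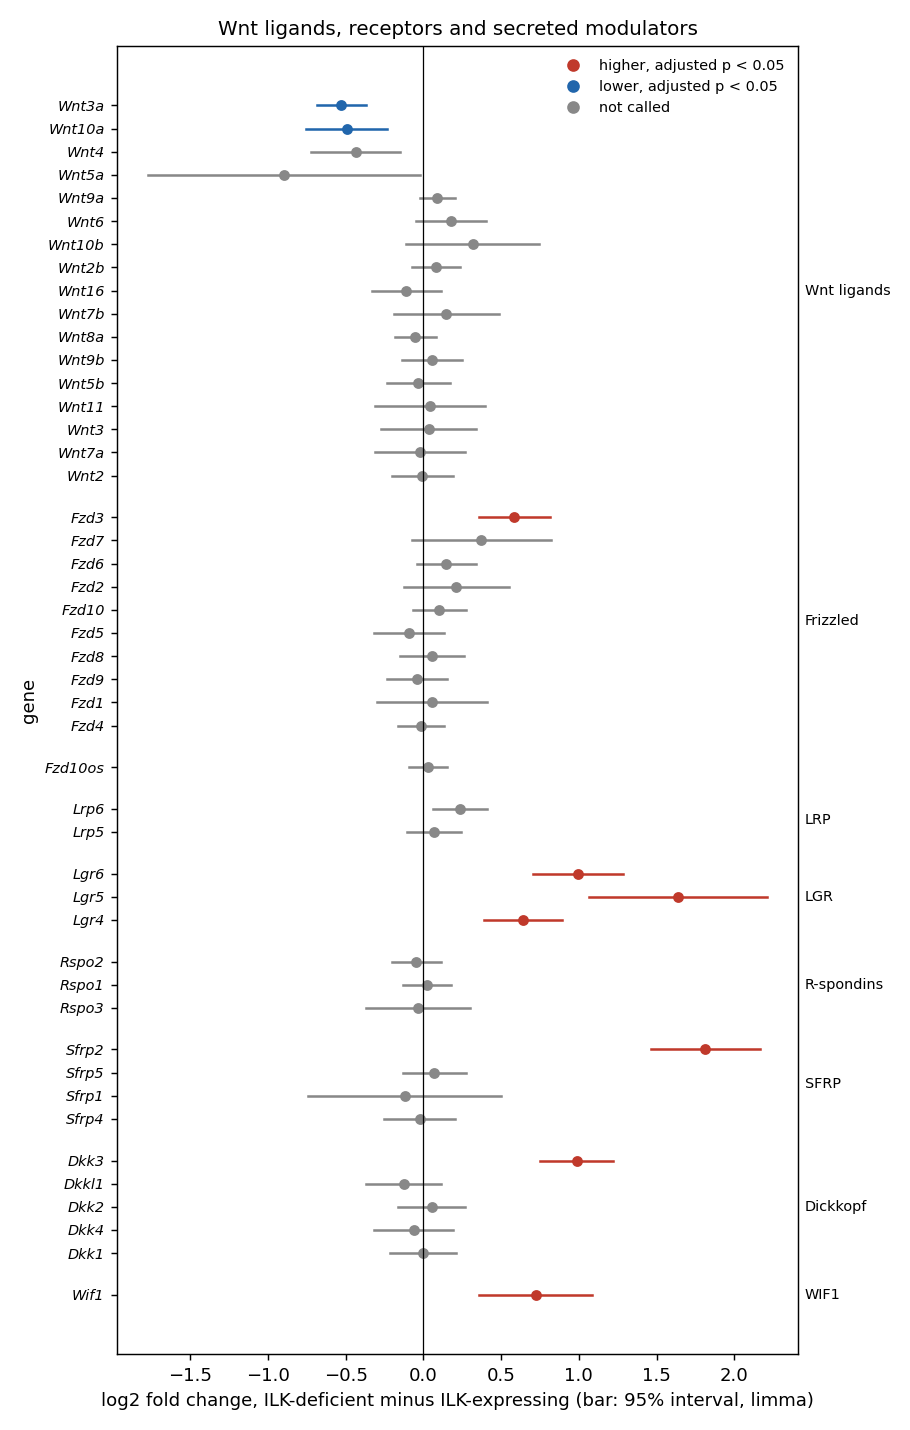
Log2 fold change (x axis, ILK-deficient minus ILK-expressing, 5 arrays each) of the 46 genes tested, 1 row per gene, grouped by role, with the 95% interval from limma as the bar. Red marks the 7 genes called higher and blue the 2 called lower, and all 3 LGR receptors lie to the right of 0 while the R-spondins lie close to it.

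Epidermal whole-tissue RNA cannot tell fewer cells of a type from less RNA per cell, and this holds for every difference below. The array median lay between 7.07 and 7.17, and each array had 87.4% to 91.2% of its probe sets at a linear value of 50 or above. Markers of basal keratinocytes had a mean level of 12.06 to 12.31 per array over both genotypes, and those of suprabasal keratinocytes 13.35 to 13.58, so both layers of the labelled tissue were present. Ilk itself, whose pooled probe set also covers exons ahead of the first loxP site and so checks the genotype labels little, averaged 8.94 ± 0.118 (SD, n = 5) without ILK and 9.17 ± 0.181 (SD, n = 5) with it (limma adjusted p = 0.253, and p = 0.0397 by a two-sided exact permutation test). ILK-expressing replicate 5 stood apart from its group: it was the highest ILK-expressing array for 19 of the 46 genes, and its median correlation with the other arrays of its genotype was 0.975, against 0.980 to 0.988 for the other arrays. It was also the highest ILK-expressing array for all 7 genes called higher, so that it lay closest to the ILK-deficient arrays for each of them, and their values without it are given where they are described.

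RefSeq promoters (GRCm38.p6) were at hand for 31 of the 49 genes, among them 5 of the 9 that differed. The 250 bases ahead of the start of these 5 genes are shown, 5′ to 3′ on the strand of the gene, because 4 of them rose together and the other, Wnt3a, fell. Capitals mark CG dinucleotides. The windows are chr2:109917397-109917646 (plus strand) for Lgr4, chr1:135105277-135105526 (minus strand) for Lgr6, chr3:83766071-83766320 (plus strand) for Sfrp2, chr10:121033754-121034003 (plus strand) for Wif1 and chr11:59290752-59291001 (minus strand) for Wnt3a.
Lgr4: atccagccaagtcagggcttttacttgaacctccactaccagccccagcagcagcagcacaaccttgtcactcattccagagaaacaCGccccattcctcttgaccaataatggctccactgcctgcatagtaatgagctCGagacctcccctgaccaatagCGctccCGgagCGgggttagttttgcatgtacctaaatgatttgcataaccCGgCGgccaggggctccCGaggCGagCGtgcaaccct
Lgr6: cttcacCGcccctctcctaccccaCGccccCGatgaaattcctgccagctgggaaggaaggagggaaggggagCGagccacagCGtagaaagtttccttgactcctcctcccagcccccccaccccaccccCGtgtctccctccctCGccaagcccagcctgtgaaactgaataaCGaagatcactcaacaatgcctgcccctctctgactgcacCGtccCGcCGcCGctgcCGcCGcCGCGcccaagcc
Sfrp2: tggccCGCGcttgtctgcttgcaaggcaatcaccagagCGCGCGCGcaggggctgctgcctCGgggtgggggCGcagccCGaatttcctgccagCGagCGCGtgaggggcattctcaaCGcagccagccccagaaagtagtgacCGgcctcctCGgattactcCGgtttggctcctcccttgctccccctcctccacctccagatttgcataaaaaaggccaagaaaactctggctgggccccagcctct
Wif1: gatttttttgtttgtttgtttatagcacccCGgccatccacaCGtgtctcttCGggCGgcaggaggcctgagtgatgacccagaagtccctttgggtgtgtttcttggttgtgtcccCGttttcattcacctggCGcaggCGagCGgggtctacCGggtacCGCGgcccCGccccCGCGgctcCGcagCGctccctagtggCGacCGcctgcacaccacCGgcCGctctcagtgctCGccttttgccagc
Wnt3a: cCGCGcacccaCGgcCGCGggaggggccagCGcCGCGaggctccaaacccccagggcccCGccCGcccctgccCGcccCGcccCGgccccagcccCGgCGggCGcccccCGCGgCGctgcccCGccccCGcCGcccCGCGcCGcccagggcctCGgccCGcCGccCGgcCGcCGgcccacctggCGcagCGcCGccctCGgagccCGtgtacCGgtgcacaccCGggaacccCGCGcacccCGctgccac

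These windows differed in base composition. The Lgr4 window held 10 CG dinucleotides, the Lgr6 and Sfrp2 windows 16 each, the Wif1 window 21 and the Wnt3a window 41, beside a median of 6 over all promoters of the table (quartiles 2 and 16). The TCF/LEF words CTTTGAA and CTTTGAT, searched on both strands, were in 0 of the 5 windows. They were in windows of 3 of the 31 genes, Dkk1, Wnt5b and Wnt11, none of which was called, which is 9.7%, beside 8.6% of the 27025 genes in the table. No match says only that these letters are absent from 250 bases, and says nothing of binding elsewhere.

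Among the receptors of R-spondins, all 3 LGR genes rose in ILK-deficient epidermis. Lgr5, which marks stem cells of the hair follicle, was at 11.25, 11.30, 10.88, 11.22 and 12.05 on the ILK-deficient arrays and at 9.62, 9.44, 9.56, 9.33 and 10.57 on the ILK-expressing arrays. The genotypes did not overlap, but the highest ILK-expressing array, replicate 5, lay only a little below the lowest ILK-deficient array. The means, 11.34 ± 0.43 (SD, n = 5) and 9.70 ± 0.495 (SD, n = 5), differed by 1.64 in log2 (standard error 0.259), or 3.11-fold, with limma's adjusted p = 0.0084 and a two-sided exact permutation p = 0.00794, the smallest that 5 arrays against 5 can give. Without ILK-expressing replicate 5 the log2 fold change of Lgr5 was 1.85 (limma adjusted p = 0.00328).

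Lgr6, the related receptor found in the isthmus of the follicle and in parts of the epidermis, was at 11.39, 11.55, 11.26, 11.34 and 11.76 on the ILK-deficient arrays and at 10.63, 10.22, 10.63, 10.17 and 10.67 on the ILK-expressing arrays. Every ILK-deficient array was above every ILK-expressing array, and the change was 0.99 (standard error 0.13), or 1.99-fold, with an adjusted p = 0.00412 from limma (1.04 without ILK-expressing replicate 5). Lgr4, the most broadly expressed of the 3 receptors, was at 11.90, 12.06, 11.79, 12.07 and 12.03 against 11.37, 11.31, 11.06, 11.20 and 11.70. Here again replicate 5 was the highest ILK-expressing array, and no array overlapped. Its log2 fold change was 0.64 (standard error 0.114), or 1.56-fold (adjusted p = 0.0143 from limma, and 0.74 without ILK-expressing replicate 5). The call of each of the 3 genes held under all 23 alternative settings.

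Some markers of the outer root sheath and bulge, the part of the follicle where LGR5-positive cells lie, rose with these receptors. Of 10 such markers, 5 rose (Krt17, Sox9, Lhx2, Nfatc1 and Runx1) and 0 fell by limma, beside 2.81% and 0.97% of all probe sets. The other 5 were not called. For 7 of the 10 the genotypes did not overlap, beside 6.33% of all probe sets. Before adjustment 7 were higher and 1 lower, and by the methods' test 3 were higher and 0 lower. Counts before adjustment, here and below, have no share of all probe sets beside them and are description only. Here and below, the methods' test is the one named in the study's methods with a Benjamini-Hochberg adjustment added. The study's methods do not name that adjustment, so this test is stricter than their own cut-off on p. The median log2 fold change of the 10 was 0.39, and their mean level was 10.58 to 10.86 on ILK-deficient and 10.28 to 10.42 on ILK-expressing arrays. Their summed linear level was 30635 to 35095 on the ILK-deficient arrays and 29596 to 31459 on the ILK-expressing arrays. The lowest of them, Cd34, averaged 6.82 on ILK-deficient and 6.61 on ILK-expressing arrays in log2. The part of these markers in the LGR result was not tested.

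The ligands of the LGR receptors did not pass the test. Of the R-spondins, Rspo2, the one with the smallest p, averaged 5.79 ± 0.111 (SD, n = 5) without and 5.83 ± 0.0967 (SD, n = 5) with ILK, which gave a log2 fold change of -0.04 (95% interval -0.20 to 0.12, limma adjusted p = 0.884). Its values were 5.74, 5.65, 5.86, 5.94 and 5.76 on the ILK-deficient arrays and 5.88, 5.81, 5.72, 5.98 and 5.79 on the ILK-expressing arrays, so the genotypes overlapped. Rspo1 had a log2 fold change of 0.03 (95% interval -0.13 to 0.18) and Rspo3, which is made by dermal papilla and other mesenchymal cells, one of -0.03 (95% interval -0.37 to 0.30). By limma 0 of the 3 tested R-spondins passed, also 0 without adjustment (p under 0.05) and 0 by the test that the study's methods name, after adjustment. All 3 lie near the threshold of 50, and a p that misses the threshold does not show that the transcripts were equal.

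**Figure D2:**
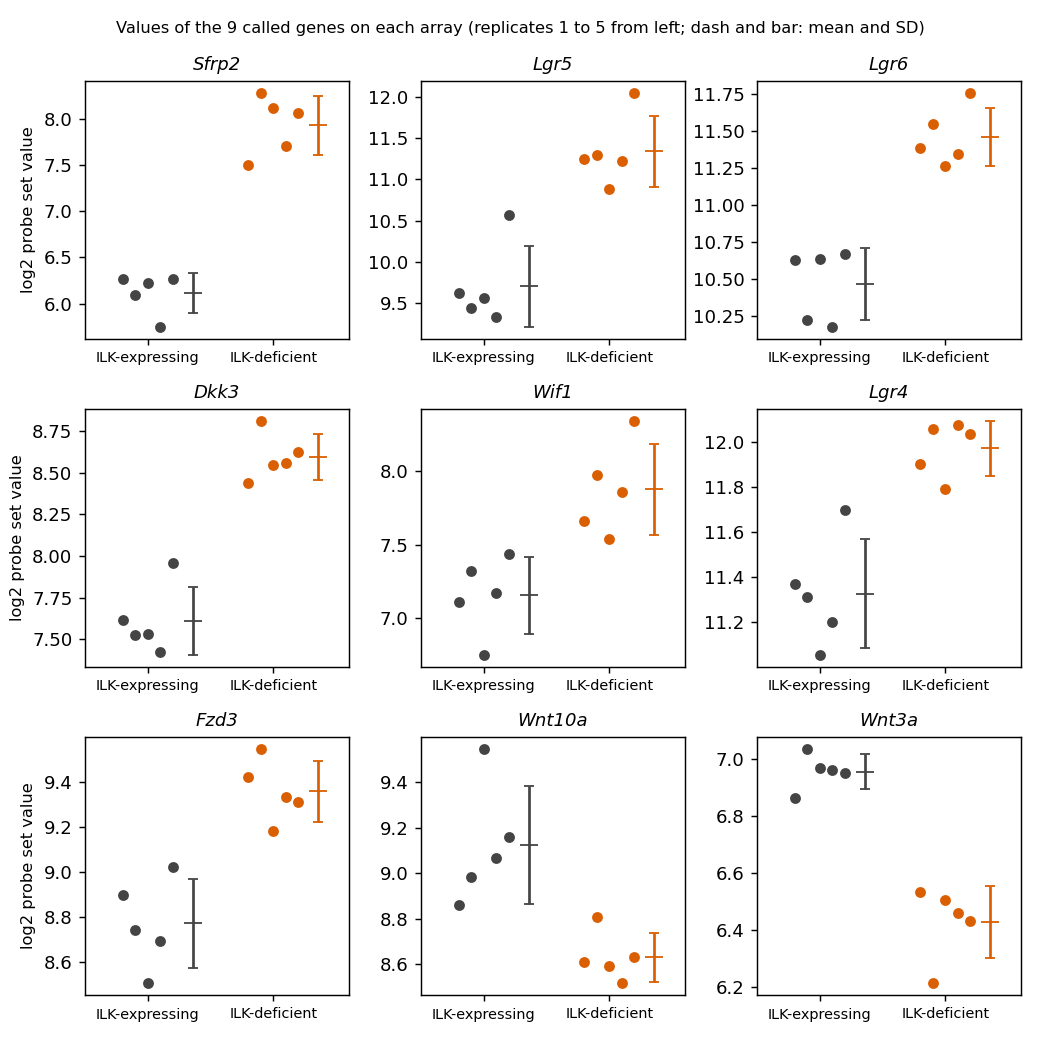
Log2 probe set value (y axis) of the 9 called genes on each array, with replicates 1 to 5 of each genotype from left to right and the mean and SD (n = 5) beside them. In no panel do the ILK-deficient arrays (orange) overlap the ILK-expressing arrays (grey), and ILK-expressing replicate 5 is the highest of its genotype in the 7 panels of genes that rose.

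In each of the SFRP, Dickkopf and WIF1 families of secreted inhibitors 1 gene rose, and the other genes of these families did not pass. Sfrp2 encodes a secreted Frizzled-related protein that binds Wnt ligands. It was at 7.50, 8.28, 8.11, 7.70 and 8.06 on the ILK-deficient arrays and at 6.26, 6.09, 6.22, 5.75 and 6.26 on the ILK-expressing arrays. All ILK-deficient arrays were higher, and the gap between the groups was wider than the range within either. The means were 7.93 ± 0.322 (SD, n = 5) and 6.12 ± 0.219 (SD, n = 5), which is a log2 fold change of 1.81 (standard error 0.158), or 3.52-fold (adjusted p = 0.000861 from limma). The ILK-expressing mean was near the threshold of 50 (5.64 in log2), where the size of a fold is less certain. The value was 1.85 without ILK-expressing replicate 5, and the call held under all 23 alternatives.

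Sfrp1, Sfrp4 and Sfrp5, which encode related inhibitors, had log2 fold changes of -0.12 (95% interval -0.74 to 0.50), -0.02 (-0.25 to 0.20) and 0.07 (-0.13 to 0.27), with adjusted p of 0.835 or more in limma. The interval of Sfrp2 itself ran from 1.47 to 2.16, above all of these. Whether Sfrp2 differed from the other SFRP genes was not tested.

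Dkk3, a Dickkopf relative whose part in Wnt signalling is less settled than that of Dkk1, was at 8.44, 8.81, 8.55, 8.56 and 8.62 on the ILK-deficient arrays and at 7.62, 7.53, 7.53, 7.42 and 7.96 on the ILK-expressing arrays. The arrays did not overlap, and ILK-expressing replicate 5 was again nearest to the other genotype. Its log2 fold change was 0.99 (standard error 0.106), or 1.98-fold (adjusted p = 0.00203 from limma), and 1.07 without ILK-expressing replicate 5. Dkk1, the LRP antagonist that is also a target of beta-catenin, was at 6.02 ± 0.107 (SD, n = 5) and 6.03 ± 0.19 (SD, n = 5), with a 95% interval of the change of -0.22 to 0.21 in log2. Dkk2 (0.05), Dkk4 (-0.06) and Dkkl1 (-0.13), the last known from the acrosome of sperm, did not pass either.

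Wif1, the Wnt inhibitory factor, was at 7.66, 7.98, 7.54, 7.86 and 8.35 on the ILK-deficient arrays and at 7.10, 7.32, 6.74, 7.17 and 7.44 on the ILK-expressing arrays. The lowest ILK-deficient array lay just above the highest ILK-expressing array. The change was 0.72 (standard error 0.165), or 1.65-fold, with an adjusted p = 0.0384 from limma (0.79 without ILK-expressing replicate 5). This call was lost under 11 of 23 alternatives, and leaving out 1 array gave log2 fold changes between 0.61 and 0.81, with the call kept only without ILK-deficient replicate 3 or ILK-expressing replicate 5.

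Sfrp2 is also known as a product of dermal fibroblasts, so their markers were compared on the same arrays. Of 12 such markers, 0 were called by limma in either direction (before adjustment 2 were higher and 0 lower, and 0 passed the methods' test), and their median log2 fold change was 0.16. Their summed linear level was 13017 to 15945 on ILK-deficient and 9299 to 15380 on ILK-expressing arrays. The log2 fold changes of the 12 ran from -0.19 to 0.77, with 10 above 0 and a smallest limma adjusted p of 0.0777. For 2 of the 12 the genotypes did not overlap (beside 6.33% of all probe sets). The collagen genes Col1a1 and Col3a1 averaged 7.82 and 7.19 on ILK-deficient and 7.64 and 7.10 on ILK-expressing arrays, with log2 fold changes of 0.18 and 0.09. Of 8 dermal papilla markers tested, 1 (Hhip) rose, beside 2.81% of all probe sets, and 0 passed the methods' test. This list holds Rspo3, which is also 1 of the 49 genes. The summed linear level of the 9 papilla markers found, with the untested Alx4, was 1222 to 1862 on ILK-deficient and 1532 to 2068 on ILK-expressing arrays. Of 8 melanocyte markers 6 rose (beside 2.81% of all probe sets), and 1 passed the methods' test. Their median was 1.13, and their summed linear level was 7289 to 13693 against 2077 to 5023. The part of these cells in the rise of Sfrp2 and Dkk3 was not tested.

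Fzd3 was the only one of the 10 tested Frizzled genes that passed the test. Fzd3, a receptor known mainly for planar polarity and axon guidance, was at 9.42, 9.55, 9.18, 9.33 and 9.31 on the ILK-deficient arrays and at 8.90, 8.74, 8.51, 8.69 and 9.02 on the ILK-expressing arrays. The genotypes did not overlap, with a log2 fold change of 0.58 (standard error 0.103), or 1.5-fold (adjusted p = 0.0141 from limma), and 0.65 without ILK-expressing replicate 5. With the 7 arrays of code letter D alone, a code of unstated meaning in the sample descriptions, its adjusted p was 0.0623 in limma. The other 9 Frizzled genes ranged from -0.09 for Fzd5 to 0.37 for Fzd7 in log2 fold change, the latter with a 95% interval of -0.08 to 0.82. Fzd2 was at 0.21 (-0.12 to 0.55), and Fzd1, Fzd4, Fzd8, Fzd9 and Fzd10 lay between -0.04 for Fzd9 and 0.10 for Fzd10. Fzd6, another polarity receptor of skin that orients the hair pattern, stood at 0.15 (adjusted p = 0.469), and Fzd10os at 0.03 (adjusted p = 0.911).

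The LRP co-receptors, which bind Wnt ligands beside Frizzled, did not pass. Lrp6 was at 10.38, 10.50, 10.41, 10.32 and 10.59 on the ILK-deficient arrays and at 10.33, 10.04, 10.20, 10.11 and 10.32 on the ILK-expressing arrays. The lowest ILK-deficient array lay within the range of the ILK-expressing arrays, and the log2 fold change was 0.24 (95% interval 0.06 to 0.41, limma adjusted p = 0.142, two-sided exact permutation p = 0.0159). Lrp5 had a log2 fold change of 0.07 (adjusted p = 0.819). By limma 0 of these 2 genes passed, 1 did without adjustment and 0 by the methods' test.

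Among the 17 tested Wnt ligands, 2 were lower in ILK-deficient epidermis and 0 were higher (before adjustment 4 were lower and 0 higher, and by the methods' test 1 was lower and 0 higher). Wnt3a, a ligand that acts through beta-catenin, was at 6.53, 6.21, 6.50, 6.46 and 6.43 on the ILK-deficient arrays and at 6.86, 7.03, 6.97, 6.96 and 6.95 on the ILK-expressing arrays. The ILK-expressing values lay close together, well above every ILK-deficient value. It fell by 0.53 on the log2 scale (standard error 0.0701), with means of 6.43 ± 0.127 (SD, n = 5) and 6.95 ± 0.0617 (SD, n = 5) and a fold of 1.44 (adjusted p = 0.00434 from limma). Both means are low on this array, only a little above the threshold of 50, which is 5.64 in log2, and with the arrays of code letter D alone the adjusted p was 0.0652.

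Wnt10a, a ligand of the placode and hair matrix, was at 8.61, 8.81, 8.59, 8.52 and 8.63 on the ILK-deficient arrays and at 8.86, 8.98, 9.55, 9.07 and 9.16 on the ILK-expressing arrays. The highest ILK-deficient array and the lowest ILK-expressing array were nearly equal. The fold was 1.41, a log2 fold change of -0.49 (standard error 0.118), with an adjusted p = 0.047 from limma, and this call was lost under 16 of 23 alternatives. With 1 array left out it was kept only without ILK-expressing replicate 1 or 3, and the log2 fold change ran from -0.56 to -0.39. Its neighbour on chromosome 1, Wnt6, had a log2 fold change of 0.18 (adjusted p = 0.465), and on chromosome 11 Wnt9a, the neighbour of Wnt3a, one of 0.09.

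**Figure D3:**
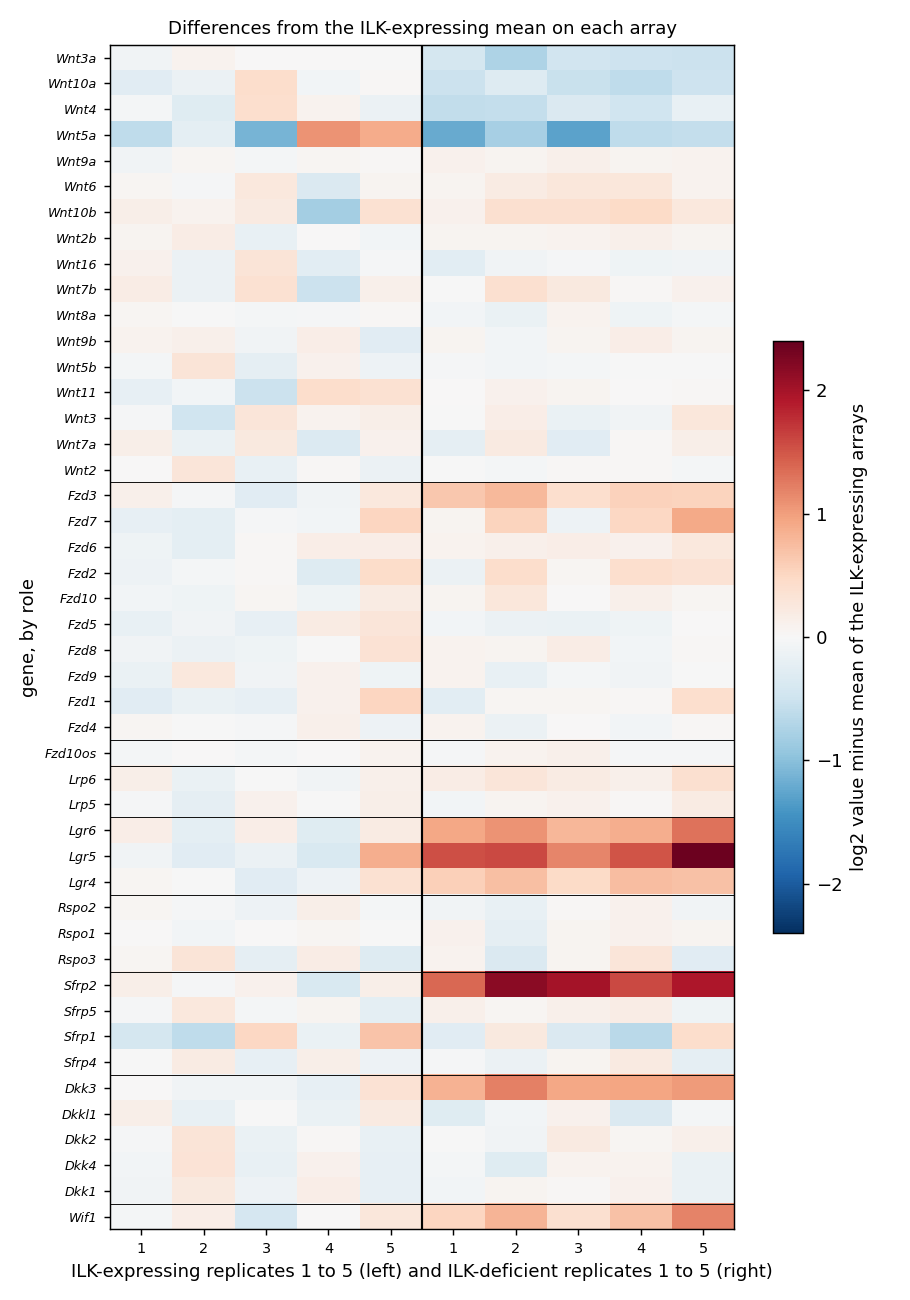
Log2 value of each of the 46 genes (rows, grouped by role) on each array (columns), minus the mean of the ILK-expressing arrays, with red above and blue below it. The 3 LGR rows and the Sfrp2, Dkk3 and Wif1 rows are red on all 5 ILK-deficient arrays, and Wnt3a, Wnt10a, Wnt4 and Wnt5a are blue there.

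Wnt9a is the gene without overlap that was not called. It was at 5.90, 5.87, 5.93, 5.87 and 5.89 on the ILK-deficient arrays and at 5.72, 5.85, 5.75, 5.85 and 5.84 on the ILK-expressing arrays, a small difference of 0.09 with an adjusted p = 0.465 from limma. Wnt4, a ligand made in several epithelia, had a log2 fold change of -0.44 and was not called (adjusted p = 0.105), and its second probe set had one of -0.67 without overlap between the genotypes (adjusted p = 0.0501, just outside the threshold). Wnt5a, which signals mainly without beta-catenin, was at 6.81, 7.23, 6.75, 7.42 and 7.44 against 7.41, 7.79, 6.90, 9.10 and 8.92. The spread within the ILK-expressing arrays was wide, and the difference of -0.89 (95% interval -1.77 to -0.02) was not called (adjusted p = 0.3). The other 12 tested ligands ranged from -0.11 for Wnt16 to 0.32 for Wnt10b, and included Wnt3 and Wnt7b, both made by keratinocytes, at 0.03 and 0.15. Wnt2, Wnt2b, Wnt5b, Wnt7a, Wnt8a, Wnt9b and Wnt11 all lay between -0.05 (Wnt8a) and 0.08 (Wnt2b).

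Structural hair markers fell along with Wnt3a and Wnt10a. All 8 markers of the hair shaft and inner root sheath were lower in ILK-deficient epidermis (6 by the methods' test), beside 0.97% of all probe sets. Their median log2 fold change was -3.86, and their summed linear level was 1086 to 2397 against 10297 to 51465. Of 7 hair matrix markers, 1, Dlx3, was lower and 0 were higher, beside 0.97% and 2.81% of all probe sets. Before adjustment 3 of the 7 were lower and 1 higher, and 0 passed the methods' test. The median of the 7 was -0.14. Lef1, which marks matrix and precortex cells, had a log2 fold change of 0.07 (adjusted p = 0.944). The part of these cells in the 2 falls was not tested.

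The wider Wnt pathway was read from lists of 82 further genes, of which 81 were found on the array and 79 were tested. Of these, 7 were called (8.86%, beside 3.78% of all probe sets), 6 higher (beside 2.81%) and 1 lower (beside 0.97%), and by the methods' test 2 were called. Over the 79 genes the median log2 fold change was 0.14. Leaving out 1 array gave between 1 and 7 such calls, the fewest without ILK-deficient replicate 5. Rnf43 and Znrf3, the ligases that R-spondin and LGR receptors take off the cell surface, rose by 0.53 (adjusted p = 0.0298) and 0.45 (adjusted p = 0.028). Ror1, a receptor of Wnt5a, rose by 0.52 (adjusted p = 0.0292), with the genotypes overlapping. These were 3 of 17 other cell-surface receptors, and the median of the 17 was 0.24. Before adjustment 12 of the 17 were higher and 0 lower. The shares of all probe sets above are for adjusted p and are no background for this count or for the other counts before adjustment. By the methods' test 0 were called, so these 3 calls were lost there.

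Of 20 intracellular components of the beta-catenin branch, 1, Btrc, the substrate-binding part of the ligase that marks beta-catenin for degradation, rose by 0.38 (adjusted p = 0.0356). This call was lost by the methods' test. The median of the 20 was 0.16, and before adjustment 10 were higher and 0 lower, again a count without a background share. Ctnnb1, the gene of beta-catenin, stood at 0.16 (adjusted p = 0.184). Of 18 genes listed as feedback targets, Sox9, a factor of the outer root sheath, rose by 0.46 (adjusted p = 0.0193). Before adjustment 8 of the 18 were higher and 3 lower. Rnf43 and Znrf3 count here again, and Sox9 and Dlx3 are also counted above among the outer root sheath and hair matrix markers. Dlx3, a homeobox gene of the hair matrix, fell by 0.80, or 1.74-fold (limma adjusted p = 0.0332). This call was lost by the methods' test with the adjustment added here. The paper, whose cut-off names no such adjustment, lists Dlx3 among the transcripts that were underrepresented. Axin2, a widely used target of beta-catenin, stood at 0.21 (adjusted p = 0.325).

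Dact1, an intracellular modulator of Dishevelled, rose by 0.94 (adjusted p = 0.00689) as 1 of 16 genes of planar cell polarity, and the median of the 16 was 0.03. Before adjustment 4 of the 16 were higher and 2 lower. None of the 11 other secreted modulators was called (before adjustment 4 were higher and 0 lower, and 0 passed the methods' test), with a median of 0.06. Sostdc1, the one of highest mean, an inhibitor of Wnt and BMP signals in ectodermal organs, stood at 0.31 (adjusted p = 0.102). Of 2 genes of Wnt secretion 0 were called (before adjustment 1 was higher and 1 lower, and 0 passed the methods' test), and Wls, the carrier that brings Wnt proteins to the cell surface, stood at -0.18 without overlap (adjusted p = 0.132).

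**Figure D4:**
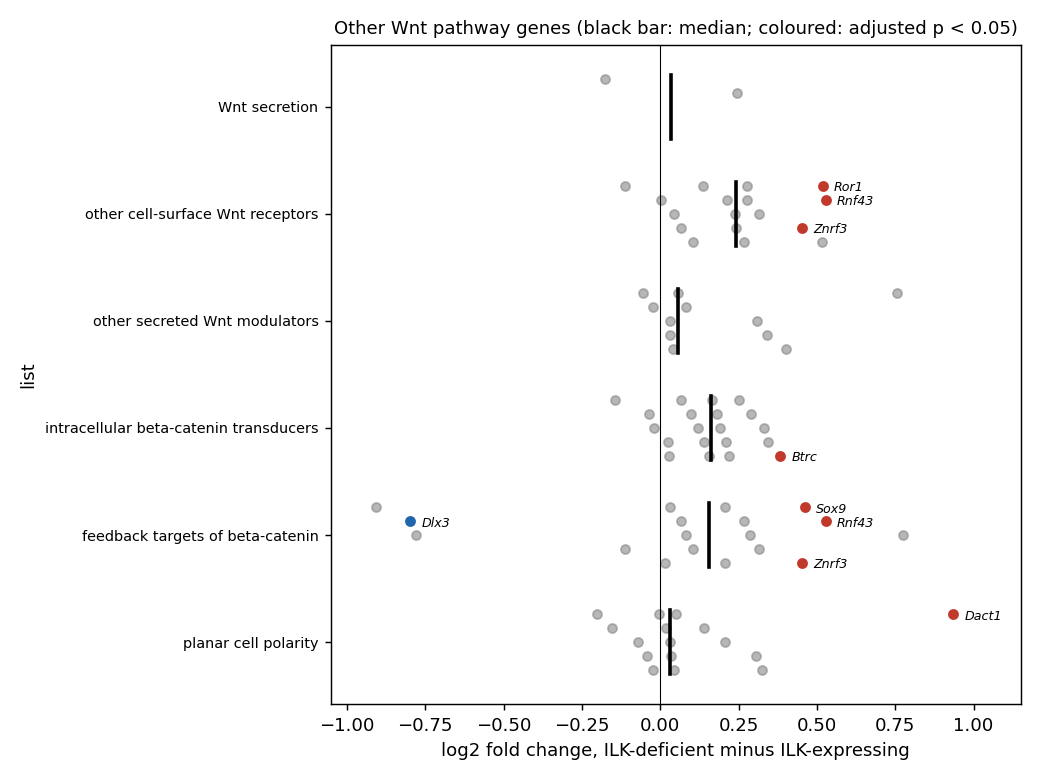
Log2 fold change (x axis) of other Wnt pathway genes, 1 point per gene and 1 row per list, with the list's median as a black bar. Red points passed the test upward and the blue point, Dlx3, downward, and the medians lie between 0.03 and 0.24.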

How the data were processed

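RNA of epidermis from 10 mice was hybridised to 10 GeneChip Mouse Gene 1.0 ST Arrays, 1 per mouse. The authors deposited 1 log2 intensity per probe set and array, after background adjustment, quantile normalization and a summary of the probes. Their methods mention GC-RMA as well as RMA without saying which made this table. The values were used as deposited.

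Genotypes came from the labels. Gene names came from the platform annotation (21789 probe sets with 1 symbol, 1621 with several, 12146 with none). Probe sets that reached 50 on the linear scale in 5 or more arrays were tested. ILK-deficient and ILK-expressing arrays were compared with limma 3.58.1 in R 4.3.3, with no covariate and with Benjamini-Hochberg adjustment over 32046 probe sets. For single genes a two-sided exact permutation test used all 252 splits into 5 and 5. The methods' test is the 1-way ANOVA of each probe set, here with Benjamini-Hochberg adjustment, which the study's methods do not name. The number of arrays limits the precision. Each array is a different mouse, so p-values measure the spread between mice. The mice are described as littermates, and litter was not modelled. The limma and ANOVA code was tested on simulated data. Promoters were searched in Python 3.11.15 in a RefSeq table.

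All genes of the rule are accounted for, and values on every array are given for those called, without overlap, named in the study, or with the smallest p of a role that has none of these. In each pathway list the called genes are named, or else that with the highest mean. Genes named besides these were chosen after their values were seen. The genes and lists were chosen with earlier results of these data known, so their counts are not independent of them. Alternatives changed the filter, scaling, test, blocks, probe sets per gene and arrays used.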

Additional observations from a re-analysis of the deposited data

Results flagged for a closer look

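In 5 of the 92 groups of 5 arrays (46 genes in each genotype), the highest or lowest array lay far from the rest, by Dixon's test at the 95% level, which chance gives in about 1 of 20 groups. The array was ILK-expressing replicate 5 in 3 of the 5 cases. For Lgr5 it was at 10.57 against 9.33 to 9.62 on the other ILK-expressing arrays, for Fzd7 at 10.65 against 9.90 to 10.09, and for Fzd8 at 7.64 against 7.16 to 7.28. Wnt10b was low at 6.79 on ILK-expressing replicate 4 against 7.68 to 7.97, and Rspo1 was low at 6.16 on ILK-deficient replicate 2 against 6.42 to 6.47. Lgr5 is the only one of these genes that was called, and its call held without each array in turn. No cause was tested.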

How the results depend on the processing

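The calls of Sfrp2, Lgr4, Lgr5, Lgr6 and Dkk3 held under all 23 alternatives. Fzd3 and Wnt3a each lost theirs under 2, and Wif1 and Wnt10a under 11 and 16. Counts were 9 of 46 genes called and 7 of the other pathway genes. Leaving out 1 array gave 7 to 8 and 1 to 7, and among the 46 genes only Wif1 and Wnt10a lost their calls. Without ILK-deficient replicate 2, 4 or 5, or ILK-expressing replicate 2 or 4, 3, 4, 1, 2 and 2 other pathway genes were called. With arrays of code letter D in the sample descriptions alone, 5 of the 46 genes and 1 other pathway gene were called (294 of all probe sets against 1211), and fewer arrays were used. With each array centred on its median 7 of the 46 and 4 other pathway genes were called, and with the ANOVA and Benjamini-Hochberg 7 and 2 (686 of all). At an unadjusted p under 0.05 and 1.5-fold or more in the methods' ANOVA, 6 of the 46 genes were called, all higher, beside 2.43% of all probe sets. With the mean of the probe sets of each gene 10 of the 46 (Wnt4 was added) and 11 other pathway genes were called, of 1693 in 18121 tests. The median of the 46 genes ranged from 0.03 to 0.06. The direction of each of the 9 called genes held under every alternative. The cause of these changes was not tested.

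Replicate numbers gave no sign of pairing in the deviations from the genotype mean, correlated over all probe sets tested. Of 5 same-numbered pairs 1 correlated over 0.1 (range -0.30 to 0.11), and 0 ILK-deficient arrays correlated best with their own number. Pairs with different numbers ranged from -0.25 to 0.38. A pairing by litter or by another grouping was not tested. With the replicate block 8 of the 46 genes (Wnt10a lost), 2 other pathway genes and 608 probe sets were called. Genes near the threshold of 50, such as the R-spondins, are measured with little signal over background.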
